A study of Mus musculus with 12 samples.

Results

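The effect of lymphodepleting chemotherapy on polymorphonuclear myeloid-derived suppressor cells (PMN-MDSC) of the spleen was measured in 6 of the 12 libraries of the study, chosen by their labels as the PMN-MDSC libraries of both arms. C57BL/6 mice carried B16 tumours, a melanoma line of the same strain, of more than 25 mm2. One arm then received cyclophosphamide, which alkylates DNA, together with the purine analogue fludarabine (lymphodepleted, LD), and the other was left untreated (Ctrl). Tumour and strain were therefore common to both arms, and no group without a tumour or with only 1 of the drugs enters the comparison. Spleens were taken 7 days after treatment, PMN-MDSC were sorted to over 99% purity by the labels, and total RNA depleted of ribosomal RNA was sequenced. Each arm has 3 PMN-MDSC libraries, called Ctrl 1 to 3 and LD 1 to 3 here, and values of single libraries are always given in that order. The series' text gives 3 mice per arm, but no label ties a library to a mouse, so p-values measure the spread between these libraries, which may be partly technical. The age and sex of the mice, the doses and the number of drug administrations are not given in the sources used here.

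PMN-MDSC are neutrophil-like cells that build up in tumour-bearing hosts and can restrain T cells through reactive oxygen species, arginine depletion and other means. A neutrophil is made in the bone marrow in steps: its precursors fill primary (azurophil) granules first, then secondary (specific) granules under the transcription factor C/EBP epsilon, then gelatinase-rich tertiary granules, and they stop dividing before release. Cyclophosphamide and fludarabine kill dividing haematopoietic cells, and the marrow then refills the blood and spleen with newly made myeloid cells.

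The 6 libraries held between 8906045 and 15810717 reads assigned to genes. Levels are normalized counts, in which 3 reads are worth between 2.64 and 4.79. The summed level of 9 neutrophil markers was 380057 to 410968 in Ctrl and 562700 to 651908 in LD, against at most 46476 in any monocytic MDSC (M-MDSC) library. Ly6g, which defines the population, was not analysed here. Of these markers 7 rose and 1, Csf3r, fell. The summed level of 7 monocyte markers was 9860 to 12322 in Ctrl and 8258 to 10213 in LD, against 63248 to 111355 in M-MDSC. The ranges of Ctrl and LD overlapped. Ly6c2 rose and 2 others fell, and Csf1r held most of the sum (7323.4 to 8966.7 in Ctrl). In a bulk sample, fewer cells of a type and less RNA per cell cannot be told apart. The LD libraries were more spread than the Ctrl libraries: the median SD of a gene over 3 libraries was 0.188 on the log2 scale in Ctrl and 0.253 in LD, and it was larger in LD for 6854 of 10496 genes (65.3%). LD 1 stood apart from LD 2 and LD 3. The first principal component separated the arms (-26.0, -26.0 and -36.4 in Ctrl against 5.4, 43.4 and 39.6 in LD), and LD 1 lay nearest to Ctrl on it and far out on the second (54.1).

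**Figure D1:**
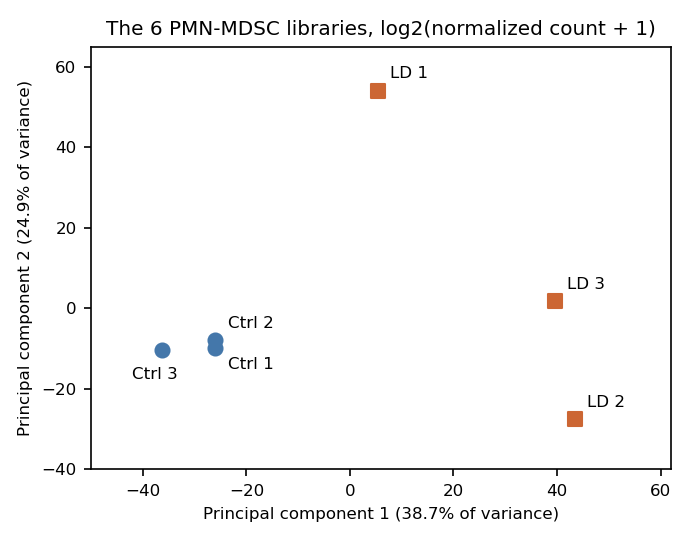
Each point is a PMN-MDSC library (blue circles Ctrl, orange squares LD) on the first and second principal components of log2(normalized count + 1) over the genes tested; the axes give component scores and the share of variance. The 3 Ctrl libraries lie close together, the LD libraries lie to their right, and LD 1 stands apart at 54.1 on the second component.

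Of 10496 genes tested with limma, 1426 (13.6%) changed at an adjusted p under 0.05: 724 rose in LD (6.9%) and 702 fell (6.69%). Changes are log2 of the normalized count plus 1, LD minus Ctrl, with the standard error (SE), and they understate the change of low genes. Of the called genes, 199 rose and 136 fell at least 2-fold, and the 2 groups overlapped in 11. Over all genes the median change was -0.04. The counts of gene lists below are to be read beside the 13.6% of all genes called. Lists and members were chosen with earlier results of these data known, so these counts are descriptions. The number called hung on single libraries: it was 924 without Ctrl 1, 653 without Ctrl 2, 671 without Ctrl 3, 2168 without LD 1 and 858 without LD 3. Leaving out any 1 library left 520 genes called each time. Hereafter, a gene named as risen or fallen was called in all 6 of these fits unless the libraries whose omission ended its call are given, with the adjusted p then found. Among the LD libraries, the lowest was LD 1 in 437 of the 724 rises, LD 2 in 215 and LD 3 in 72. In the 702 falls the highest was LD 1 in 258, LD 2 in 250 and LD 3 in 194.

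The largest rises included genes of membrane receptors and enzymes, most of them low in Ctrl, and the largest falls included a cholesterol transporter and a cholesterol-esterifying enzyme. Acvrl1, a receptor of the TGF-beta family for BMP9 and BMP10 (chr15:101128522-101145336 in mm10), was at 576.4, 497.5 and 606.6 in Ctrl and 2026.1, 2254.9 and 3065.4 in LD, a 4.31-fold rise (2.11, SE 0.15, adjusted p 2.9e-05). All LD libraries lay far above all Ctrl libraries. Nt5e, which encodes CD73, the enzyme that makes adenosine from AMP, was at 125.5, 144.1 and 126.1 in Ctrl and 435.5, 807.5 and 935.3 in LD (2.38, SE 0.25, adjusted p 1.7e-04). Tgm3, a transglutaminase, rose by 2.62 (adjusted p 0.00213), from 152.0, 96.7 and 79.8 to 274.6, 920.8 and 1100.8, with LD 1 the lowest of its group, and by 3.24 without LD 1. Cobll1 (4.02), Lyve1 (3.41), Ptpn3 (2.90), Prok2 (2.88), Stfa1 (2.68), Gpr27 (2.44) and Pnpla1 (2.35) rose from Ctrl means of 7.4 to 42.2 normalized counts. Lyve1 encodes a hyaluronan receptor, Prok2 a secreted prokineticin and Stfa1 a cysteine protease inhibitor. The change of Cobll1 was 4.70 without Ctrl 2 and that of Prok2 2.29 without Ctrl 3. Stfa1 has near-identical copies, so its reads may be split or shared among them.

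Among the falls, Abca1, the transporter that exports cholesterol from cells (chr4:53030789-53159988 in mm10), was at 582.5, 815.6 and 612.9 in Ctrl and 182.6, 47.1 and 75.7 in LD, 7.56-fold lower (-2.92, SE 0.37, adjusted p 5.8e-04). Soat2, which esterifies cholesterol for storage, was at 1154.8, 1000.2 and 1170.0 in Ctrl and 303.0, 130.9 and 189.3 in LD, 5.62-fold lower (-2.49, SE 0.24, adjusted p 1.1e-04). In both genes the groups were far apart and LD 1 was the highest LD library. Zbtb16, which encodes the transcription factor PLZF, fell from 556.0, 656.6 and 648.1 to 186.7, 238.3 and 218.8 (-1.53, SE 0.15, adjusted p 1.5e-04). Piwil2 (-1.78), Myo1a (-1.78) and Mir24-2 (-1.97), a microRNA hairpin whose count in these long-RNA libraries is not that of the mature microRNA, also fell. For the other falls the call hung on single libraries. Wfdc17 was at 1404.7, 1024.0 and 1080.6 in Ctrl and 937.3, 126.5 and 124.8 in LD (-2.23, adjusted p 0.0239); its change was -3.19 without LD 1, and its call was lost without Ctrl 1, Ctrl 2, Ctrl 3, LD 2 or LD 3 (adjusted p 0.0535 to 0.0997). The chemokine receptor gene Cxcr1 (-1.88) lost its call without the same 5 libraries (0.0757 to 0.0881), and its change was -2.61 without LD 1. Klf11 (-2.17; -2.91 without LD 1) and Cyb5d1 (-1.53) lost theirs without Ctrl 3 (0.0640 and 0.0678). The peptide transporter gene Slc15a2 (-2.11) lost its call without Ctrl 1 or Ctrl 3 (0.0517 to 0.0617), and the Na-K-Cl cotransporter gene Slc12a2 (-1.66) without Ctrl 1, Ctrl 3 or LD 3 (0.0551 to 0.0916).

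Secondary granule genes rose together. Of 18 tested, 14 rose and none fell, with a median change of 1.13 against -0.04 over all genes, and in 16 every LD library lay above every Ctrl library, which held for 14.9% of all genes. Ngp, neutrophilic granule protein (chr9:110419808-110423012), was at 37987, 41251 and 42370 in Ctrl and 121914, 84685 and 116698 in LD (1.39, SE 0.16, adjusted p 3.4e-04). Ltf, lactoferrin, the iron-binding protein of these granules, was at 40382, 45743 and 49559 in Ctrl and 121125, 89874 and 123471 in LD (1.29, SE 0.16, adjusted p 5.3e-04). In both genes LD 2 was the lowest LD library, and it still lay far above Ctrl. Camp, the precursor of the antimicrobial peptide cathelicidin, rose 2.14-fold (1.10), from 5580.0, 6198.2 and 6020.9 to 16531, 11115 and 11094. Lcn2, which binds bacterial siderophores, was at 20095, 19467 and 19247 in Ctrl and 52850, 45961 and 59140 in LD (1.42, SE 0.13, adjusted p 8.0e-05). The surface protein gene Cd177 (1.53), the integrin gene Itgb2l (1.59) and Ceacam10 (1.70) rose by more, and Ceacam10 has close copies in the genome. The plot of granule and cell cycle genes shows the values of each library.

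The promoters of Ngp, Lcn2 and Ltf are shown because they were the 3 of 13 risen secondary granule genes with a RefSeq promoter whose window held a pair of C/EBP half-sites, searched as TTGCNNAA on both strands in 250 bases before and 50 after the start site. That is 23.1%, against 836 of the 8388 promoters of all genes tested and 12.2% of all RefSeq promoters, and 3 genes are few. Over the whole list tested, risen or not, 5 of 15 (33.3%) held it. A match is a description of letters and not a measured binding site. The 250 bases before each start site are printed from RefSeq on GRCm38.p6 with the match in capitals, for Ngp at chr9:110419558-110419807, plus strand, for Lcn2 at chr2:32387740-32387989, minus strand and for Ltf at chr9:111019042-111019291, plus strand.
Ngp: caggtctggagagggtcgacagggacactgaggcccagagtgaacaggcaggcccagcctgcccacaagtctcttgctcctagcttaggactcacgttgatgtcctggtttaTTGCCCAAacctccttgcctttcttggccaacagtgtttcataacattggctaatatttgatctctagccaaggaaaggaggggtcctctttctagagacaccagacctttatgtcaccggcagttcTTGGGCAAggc
Lcn2: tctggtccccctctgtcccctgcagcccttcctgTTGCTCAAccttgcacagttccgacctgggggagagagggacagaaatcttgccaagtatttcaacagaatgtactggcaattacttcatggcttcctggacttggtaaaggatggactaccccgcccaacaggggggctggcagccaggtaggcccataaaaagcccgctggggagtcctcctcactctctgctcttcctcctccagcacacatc
Ltf: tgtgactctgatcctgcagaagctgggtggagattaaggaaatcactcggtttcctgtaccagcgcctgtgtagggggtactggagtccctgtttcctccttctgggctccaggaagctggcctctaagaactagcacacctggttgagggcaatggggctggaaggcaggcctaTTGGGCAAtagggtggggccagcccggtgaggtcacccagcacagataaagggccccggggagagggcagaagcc
The Ngp matches start 138 and 11 bases before the start site, that of Lcn2 216 and that of Ltf 75 before it.

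Of 12 genes listed for tertiary granules and secretory vesicles 6 rose and none fell (median 0.51). Mmp8, neutrophil collagenase, was counted in this list although it is chiefly a secondary granule protein. It showed the widest gap: 8291.4, 7942.9 and 8065.7 in Ctrl and 21809, 32009 and 38246 in LD (1.88, SE 0.17, adjusted p 8.4e-05). The formyl peptide receptor genes Fpr1 (1.13) and Fpr2 (1.06), which sense bacterial peptides, and the membrane-bound protease gene Mmp25 (1.43) rose too. Primary granule genes were mixed in level. Of 9 tested 4 rose and none fell (median 1.41), and 2 rose without Ctrl 2, Ctrl 3, LD 1 or LD 3. Lyz2, lysozyme, was at 28365, 24715 and 26914 in Ctrl and 68319, 75824 and 70959 in LD (1.43, SE 0.12, adjusted p 7.2e-05), and Serpinb1a, an inhibitor of granule proteases, rose by 1.41. Both are also made outside the promyelocyte stage. The defining primary granule genes were low: Mpo, myeloperoxidase, was at 2.0, 0.0 and 8.0 in Ctrl and 278.6, 8.8 and 39.3 in LD (3.99, adjusted p 0.0411). Most of that rise was in LD 1, and the change was 3.20 without Ctrl 2, 4.78 without Ctrl 3, 2.72 without LD 1 and 5.14 without LD 2. Its call was lost without Ctrl 1, Ctrl 2, Ctrl 3, LD 1 or LD 3 (adjusted p 0.0541 to 0.132), and that of Prtn3, proteinase 3 (2.12), without the same libraries (0.0717 to 0.115). Elane, neutrophil elastase, was at 0.0, 0.9 and 0.0 in Ctrl and 56.8, 13.2 and 4.2 in LD and was not called (adjusted p 0.0671).

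**Figure D2:**
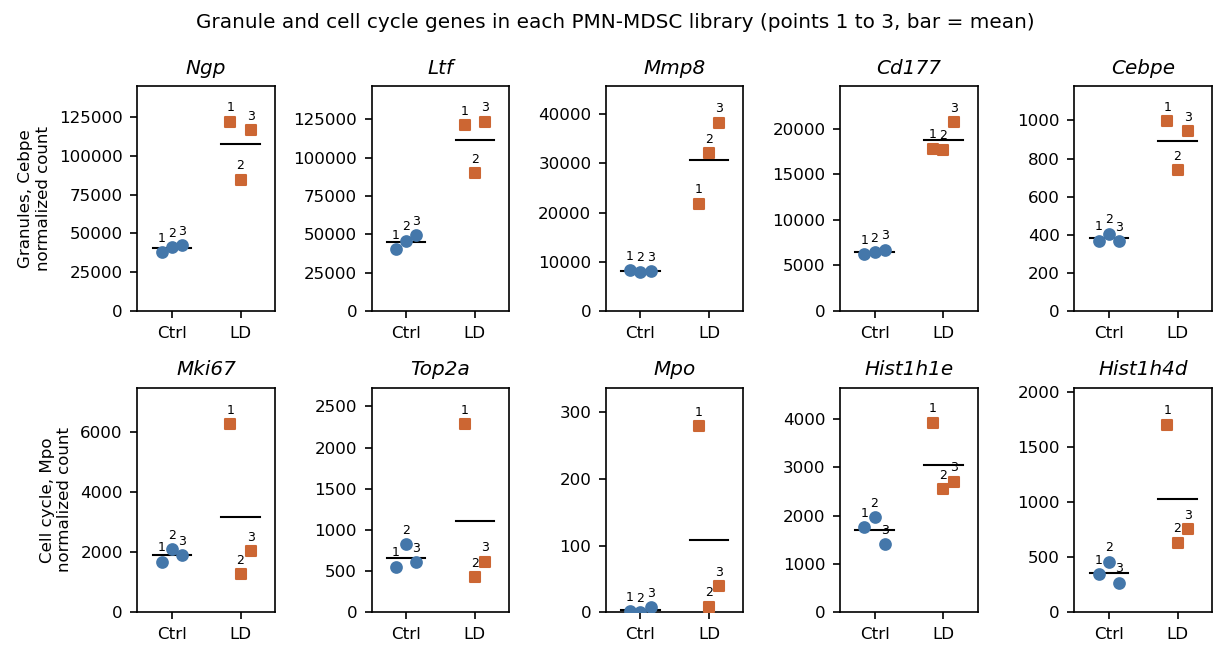
Normalized counts of 10 genes in each PMN-MDSC library (points labelled 1 to 3, blue circles Ctrl, orange squares LD, bar at the mean of 3 libraries), with a linear axis from 0 for each gene. Ngp, Ltf, Mmp8, Cd177 and Cebpe are higher in all LD libraries, while Mki67, Top2a and Mpo are high in LD 1 (6242.0, 2279.1 and 278.6).

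The list of immature neutrophils and their dividing precursors, which shares several granule genes with the lists above, had 16 risen genes of 24, none fallen and a median of 0.99; 10 rose when the spread was pooled over all 12 libraries. Cebpe, the regulator of secondary granule genes, was at 369.3, 406.1 and 367.1 in Ctrl and 995.5, 739.9 and 943.7 in LD (1.22, SE 0.14, adjusted p 3.4e-04). Adpgk, an ADP-dependent glucokinase, rose by 1.45, and Anxa1, an anti-inflammatory annexin, by 1.01, from 14972, 14628 and 14850 to 29983, 28482 and 31238. Ly6c2, one of the genes behind the Ly6C antigen, rose 3.83-fold (1.94), from 649.8, 395.5 and 523.6 to 1978.8, 1757.7 and 2187.6. Its close copy Ly6c1 can share its reads. Genes of mature neutrophils went both ways: 8 of 35 rose and 7 fell (median 0.06). Fewer fell when 1 library was left out: 3 without Ctrl 1, 3 without Ctrl 2, 1 without Ctrl 3, 1 without LD 2 and 3 without LD 3. Retnlg, a resistin-like protein of ripe neutrophils, rose from 10150, 8112.5 and 6432.7 to 18874, 30677 and 40909 (1.83, adjusted p 6.3e-04), and the secreted-inhibitor gene 1100001G20Rik, now Wfdc21, rose by 1.44. The stefin genes Stfa1 and Stfa2l1 (1.05) are near-identical copies. Csf3r, the receptor for G-CSF, the main growth factor of neutrophils, was at 157386, 153565 and 169452 in Ctrl and 98420, 101934 and 95899 in LD, 1.62-fold lower (-0.70, SE 0.15, adjusted p 0.0112), with no overlap. Its call was lost without Ctrl 2, Ctrl 3 or LD 2 (0.0556 to 0.0636). The chemokine receptor genes Cxcr2 (0.03, SE 0.12) and Cxcr4 (-0.13, SE 0.10), which steer release from and homing to the marrow, were not called.

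Among 30 myeloid transcription factors 3 rose and 3 fell. Zeb2, a repressor active in several myeloid fates, fell from 3848.9, 2981.3 and 4006.5 to 1838.1, 1559.1 and 1719.2 (-1.07, SE 0.13, adjusted p 3.4e-04), and Junb by 0.61. Id2 rose by 0.60 but lost its call without Ctrl 1, Ctrl 2, Ctrl 3, LD 1 or LD 3 (0.0576 to 0.144). The others, both chosen after their values were seen, were Max (0.58) and Runx3 (-0.68), which each lost the call without every library but LD 1 (0.0780 to 0.127 and 0.0567 to 0.176). Without Ctrl 1, Ctrl 2, Ctrl 3 or LD 3 the number that rose was 1, and without LD 1 the number that fell was 5. Of 12 progenitor genes 3 rose and 1 fell, and 1 rose without Ctrl 2. Myb, needed by dividing precursors, was at 110.2, 116.0 and 124.5 in Ctrl and 336.8, 173.6 and 291.7 in LD (1.13, SE 0.25, adjusted p 0.0116). The LD values were spread but all lay above Ctrl. Lmo2 rose by 0.57 (lost without Ctrl 2, 0.0661) and Erg by 0.88 (lost without Ctrl 1, Ctrl 2 or LD 3, 0.0873 to 0.110). Csf1r, the receptor of macrophage growth factor, fell by 0.49 (lost without Ctrl 1, Ctrl 2 or LD 3, 0.0504 to 0.0603).

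Few cell cycle genes passed the test, and LD 1 differed from the other LD libraries in them. Mki67, the proliferation marker Ki-67, was at 1688.3, 2097.1 and 1901.1 in Ctrl and 6242.0, 1260.5 and 2024.9 in LD (0.41, SE 0.41, adjusted p 0.551). Top2a, the topoisomerase of dividing cells, was at 556.0, 826.2 and 609.8 in Ctrl and 2279.1, 423.6 and 615.6 in LD (0.36, SE 0.45, adjusted p 0.645). In both genes LD 1 was above and LD 2 below all Ctrl libraries, and without LD 1 the changes were -0.24 and -0.36 (adjusted p 0.329 and 0.205). None of 34 genes of mitosis and the spindle rose, and 1 fell, Kif23, a motor protein of cytokinesis (-0.48, adjusted p 0.00576), which was at 4866.9, 5082.8 and 4622.6 in Ctrl and 3377.3, 3531.6 and 3529.6 in LD. The median of the list was 0.34 by limma and 0.77 by edgeR and DESeq2, 2 of its genes had an unadjusted p under 0.05, and edgeR called no rise and DESeq2 1. None of 28 DNA replication genes was called by limma (median 0.54), with 4 at an unadjusted p under 0.05, while edgeR called 1 and DESeq2 4 as risen; Mcm4, a subunit of the replicative helicase, was at -0.14 (SE 0.21) and E2f8 at 0.70 (SE 0.24). Of 21 replication-dependent histone genes 4 rose (median 0.82), and DESeq2 called 7. That number was 1 without Ctrl 1, 1 without Ctrl 3 and 2 without LD 1. The linker histone gene Hist1h1e was at 1760.7, 1967.9 and 1414.2 in Ctrl and 3919.7, 2547.6 and 2706.4 in LD (0.82, adjusted p 0.00729), with LD 1 highest. Hist1h4d (1.40) lost its call without Ctrl 1 or Ctrl 3 (0.0504 to 0.0616), Hist1h2bf (1.52) without Ctrl 1, Ctrl 2, Ctrl 3, LD 1 or LD 2 (0.0570 to 0.107), and Hist1h2bk (1.86) without Ctrl 1, Ctrl 3, LD 1 or LD 3 (0.0670 to 0.122). Histone genes are near-identical, and Hist1h1e also overlaps Hist1h2be on the same strand in the annotation, so single members are uncertain.

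Genes tied to suppression of T cells moved in both directions: 10 of 26 rose and 6 fell (median 0.14). The list was chosen with earlier results of these data known. It holds Nt5e, Wfdc17 and Cxcr1, which are among the largest changes above, so its count describes these members only. The number that fell was 2 without Ctrl 1, 1 without Ctrl 2, 1 without Ctrl 3, 2 without LD 2 and 2 without LD 3. S100a8 and S100a9, the subunits of calprotectin, rose 2.34-fold and 2.37-fold. S100a8 was at 37032, 34924 and 37192 in Ctrl and 86394, 86411 and 82815 in LD (1.23, SE 0.12, adjusted p 1.5e-04). S100a9 was at 106615, 91692 and 95318 in Ctrl and 227042, 226964 and 241269 in LD (1.25, SE 0.16, adjusted p 6.3e-04). The LD libraries were alike in both genes. Arg1 and Nos2, the arginine-consuming enzymes of classic descriptions, were too low to test: Arg1 was at 0.0 in every library but LD 2, at 4.4, and Nos2 was at 11.2, 2.6 and 0.0 in Ctrl and 2.7, 0.0 and 5.6 in LD. Cd274, which encodes PD-L1, was at 1448.5, 1577.7 and 1419.0 in Ctrl and 999.5, 1223.8 and 1078.4 in LD (-0.43, SE 0.11, adjusted p 0.0253), without overlap, and lost its call without Ctrl 1, Ctrl 2, Ctrl 3 or LD 3 (0.0600 to 0.134). Il6ra, the IL-6 receptor chain, was not called (-0.09, SE 0.10).

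Of 20 genes of the NADPH oxidase and antioxidant defence 7 rose and none fell (median 0.44); the number was 4 without Ctrl 2, Ctrl 3, LD 2 or LD 3. Cybb, the catalytic subunit of the oxidase that makes superoxide, was at 6843.9, 7535.9 and 8420.0 in Ctrl and 19382, 14306 and 19063 in LD (1.20, SE 0.13, adjusted p 2.9e-04). Its cytosolic partner gene Ncf1 was at 12265, 11791 and 10872 in Ctrl and 15622, 27522 and 26976 in LD (0.96, adjusted p 0.00571), with LD 1 nearest to Ctrl. On the antioxidant side, Gclm, a subunit of the enzyme for glutathione synthesis, rose from 180.6, 161.7 and 142.1 to 377.4, 372.1 and 370.2 (1.21, adjusted p 9.0e-04), and the peroxiredoxin gene Prdx5 rose by 1.01.

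Of 36 interferon-stimulated genes tested 16 rose, none fell and 20 were not called, with a median of 0.38. Every LD library lay above every Ctrl library in 20 and below in 3 that were not called, Oas2 (-0.37), Ifi27l1 (-0.39) and Trim30a (-0.28), chosen after their values were seen. Over all genes these orders held for 14.9% and 18.3%. Without Ctrl 2 the number that rose was 8. Ifit2, an RNA-binding antiviral protein, was at 1230.2, 1107.5 and 1324.9 in Ctrl and 2349.4, 2103.4 and 2282.9 in LD (0.88, SE 0.11, adjusted p 4.0e-04). Its relative Ifit3 was at 2504.4, 2096.2 and 3077.5 in Ctrl and 4677.1, 4105.2 and 4371.0 in LD (0.79, SE 0.13, adjusted p 0.00251), and I830012O16Rik, now Ifit3b and a close copy of it, rose by 0.89. Ifitm3, which blocks entry of enveloped viruses, rose from 3075.6, 2089.2 and 2336.9 to 5237.1, 4670.0 and 5609.2 (1.06, adjusted p 6.3e-04). In these 4 genes all LD libraries, LD 1 included, lay above all Ctrl libraries. The interferon-stimulated response element, searched as GAAA, any 2 bases and GAAA again on both strands, stood in the promoters of 10 of 13 risen members with a RefSeq promoter (76.9%) and of 16 of 25 tested members (64.0%), against 4.0% for all genes tested. The list is made of genes known for this element, so the share is a description of its members. The 250 bases before the start site of Ifit3 are shown as an example that carries the element 2 times (chr19:34583279-34583528, plus strand, RefSeq, GRCm38.p6, matches in capitals on the opposite strand, starting 156 and 122 bases before the start site).
Ifit3: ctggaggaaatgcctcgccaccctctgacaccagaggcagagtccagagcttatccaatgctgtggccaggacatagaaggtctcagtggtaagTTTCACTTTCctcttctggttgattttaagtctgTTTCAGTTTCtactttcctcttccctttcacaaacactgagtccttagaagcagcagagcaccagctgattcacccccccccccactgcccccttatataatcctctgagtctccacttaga
Of 21 genes induced by interferon gamma 3 rose (median 0.31), and 1 rose without Ctrl 2, Ctrl 3 or LD 2: Ifi47, a GTPase (0.87), whose exons overlap other genes, the chemokine gene Cxcl10 (1.06, lost without Ctrl 1, Ctrl 2, Ctrl 3 or LD 2, 0.0641 to 0.0952) and the immunoproteasome gene Psmb8 (0.47, lost without Ctrl 2, Ctrl 3, LD 2 or LD 3, 0.118 to 0.183). The share called was 14.3%, near the 13.6% of all genes. For MHC class I presentation 2 of 15 rose, B2m (0.58, lost without Ctrl 2 or Ctrl 3, 0.0576 to 0.0644) and Psme1 (0.52, lost without Ctrl 2, Ctrl 3 or LD 3, 0.0555 to 0.0678). The nonclassical gene H2-Q10 fell from 8711.7, 8689.1 and 8517.4 to 3954.9, 4653.9 and 4823.9 (-0.95, adjusted p 2.4e-04), and it has close copies among the other class I genes. None of 14 MHC class II and costimulation genes was called by limma (median -0.28), with 3 at an unadjusted p under 0.05, none by edgeR and 1, a fall, by DESeq2; the most abundant, Ctss and Icosl, were at 0.08 (SE 0.14) and -0.02 (SE 0.12). Changes in the list ran from -2.31 to 0.43, and in 3 members, H2-Ob (-2.31), Ciita (-0.95) and Cd80 (-0.55), chosen after their values were seen, every LD library lay below every Ctrl library. That order held for 18.3% of all genes, so 3 of 14 is near the share of genes at large. For H2-Ob (-2.92) and H2-Eb1 (-2.01), named after their values were seen, the PMN-MDSC change lay below that of M-MDSC by limma over 12 libraries (adjusted p 0.0482 and 0.0293).

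Of 22 genes of cholesterol synthesis tested 7 rose, none fell and 15 were not called, with a median of 0.80, while the export gene Abca1 and the storage gene Soat2 fell, as given above. In 12 members every LD library lay above every Ctrl library, and in 1, Tm7sf2 (-0.50), chosen after its value was seen, every LD library lay below. Over all genes these orders held for 14.9% and 18.3%. The number that rose was 4 without Ctrl 3 or LD 3, and 4 with no minimum level. Srebf2, the transcription factor that turns the pathway on when sterols are low, was at 599.8, 591.5 and 573.0 in Ctrl and 1510.8, 1603.3 and 1959.0 in LD, 2.85-fold higher (1.51, SE 0.12, adjusted p 5.5e-05). The groups were far apart. Of the enzymes, Hmgcs1, at the entry of the pathway, was at 226.5, 186.3 and 191.5 in Ctrl and 372.0, 361.8 and 380.0 in LD (0.88, adjusted p 0.00405), and Sc4mol, now Msmo1, a sterol oxidase, was at 242.8, 254.0 and 234.6 in Ctrl and 504.5, 631.0 and 629.6 in LD (1.26, adjusted p 3.5e-04). A CCAAT box, searched as CCAAT on both strands and so reading ATTGG on the opposite one, stood in the windows of all 16 tested members with a RefSeq promoter, against 43.1% of all genes tested. It is a common promoter box. A sterol regulatory element, searched as TCACNCCAC after the values were seen, stood in 1 of those 16 (6.2%), against 1.3% of all genes tested. That 1 is Hmgcs1, whose sequence below holds it unmarked, and 1 gene is few. The promoters of Srebf2, Hmgcs1 and Sc4mol are shown as the regulator and 2 enzymes, with the box in capitals in the 250 bases before the start site (Srebf2 chr15:82147019-82147268, plus strand, Hmgcs1 chr13:119690101-119690350, plus strand, Sc4mol chr8:64733579-64733828, minus strand, RefSeq, GRCm38.p6).
Srebf2: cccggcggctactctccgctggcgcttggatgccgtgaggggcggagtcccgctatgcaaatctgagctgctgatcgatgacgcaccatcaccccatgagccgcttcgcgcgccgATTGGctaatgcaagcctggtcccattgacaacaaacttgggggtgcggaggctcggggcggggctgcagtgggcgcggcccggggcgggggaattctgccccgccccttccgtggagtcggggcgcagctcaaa
Hmgcs1: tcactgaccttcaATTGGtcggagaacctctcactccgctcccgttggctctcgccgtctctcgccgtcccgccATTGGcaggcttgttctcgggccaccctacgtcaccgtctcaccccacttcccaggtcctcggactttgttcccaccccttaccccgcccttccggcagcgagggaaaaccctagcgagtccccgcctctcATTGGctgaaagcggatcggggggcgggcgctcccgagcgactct
Sc4mol: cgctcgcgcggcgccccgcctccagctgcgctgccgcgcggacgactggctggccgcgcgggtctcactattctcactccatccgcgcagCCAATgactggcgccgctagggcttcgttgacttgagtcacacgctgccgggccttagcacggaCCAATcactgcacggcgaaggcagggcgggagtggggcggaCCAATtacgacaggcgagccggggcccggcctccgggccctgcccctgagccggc
The box occurs 1 time before the start site of Srebf2, and 3 times before those of Hmgcs1 and Sc4mol.

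Glycolysis genes rose more often than they fell: 10 of 22 rose and 2 fell (median 0.41), and 5 rose without Ctrl 2, Ctrl 3 or LD 3. Gapdh was at 4553.8, 3394.4 and 2932.2 in Ctrl and 5755.1, 6730.8 and 7084.4 in LD (0.87, SE 0.15, adjusted p 0.00303). G6pdx, which opens the pentose phosphate pathway and supplies the NADPH that the oxidase uses, was at 4699.6, 3980.7 and 4049.6 in Ctrl and 6684.3, 6848.4 and 7726.7 in LD (0.74, adjusted p 0.00112), and Pgk1 (0.82) and Gpi1 (0.62) rose too. The 2 that fell were Slc2a1, a glucose transporter gene (-0.56), and Pdk1, a kinase that holds back pyruvate oxidation (-0.93, lost without every library but LD 1, 0.0823 to 0.118); both were chosen after their values were seen. Of 26 oxidative phosphorylation genes 2 rose, Uqcrc1 (0.58) and Atp5a1 (0.40, lost without Ctrl 2, Ctrl 3, LD 2 or LD 3, 0.0633 to 0.143). Of 30 ribosomal protein genes 3 rose and none rose without Ctrl 2, Ctrl 3 or LD 2; with upper-quartile scaling, and without LD 1, 1 rose. Of these 3, Rpl4 (0.42) lost its call without any 1 of the 6 libraries (0.0609 to 0.164), Rplp0 (0.53), whose groups overlapped, without Ctrl 2, Ctrl 3, LD 1 or LD 2 (0.0601 to 0.188) and Rps4x (0.59) without Ctrl 2, Ctrl 3 or LD 2 (0.0544 to 0.119). For ribosome assembly 2 of 23 fell, Heatr1 (-0.97, lost without Ctrl 1, Ctrl 2, Ctrl 3 or LD 2, 0.0555 to 0.0825) and Npm3 (-1.08, lost without Ctrl 1, Ctrl 2, Ctrl 3 or LD 3, 0.0582 to 0.0958).

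Of 21 immediate-early genes, the first to be switched on by a stimulus, 8 fell, none rose and 13 were not called (median -0.41), and in 12 every LD library lay below every Ctrl library, which held for 18.3% of all genes. The number that fell was 4 without Ctrl 1, 2 without Ctrl 2 and 3 without Ctrl 3. Junb, a subunit of AP-1, was at 17912, 17514 and 18467 in Ctrl and 11394, 12017 and 12014 in LD (-0.61, SE 0.10, adjusted p 0.00222). Dusp1, a phosphatase that ends MAP kinase signals, was at 13122, 15579 and 17876 in Ctrl and 7912.4, 9409.2 and 9887.6 in LD (-0.77, SE 0.13, adjusted p 0.00303). Zfp36, which speeds the decay of cytokine messages, fell by 0.51 (lost without Ctrl 2, 0.0505), and Atf3 by 0.61 (lost without Ctrl 1, Ctrl 2 or Ctrl 3, 0.0536 to 0.0636). Of 23 genes of the IL-6 and STAT3 response 4 fell and 1 rose, and 2 fell without Ctrl 2. Socs3, the feedback inhibitor of this pathway and of the G-CSF receptor, was at 7425.3, 6634.2 and 7725.7 in Ctrl and 4195.6, 2368.1 and 2187.6 in LD, 2.60-fold lower (-1.38, SE 0.20, adjusted p 0.00106). LD 1 lay between LD 2 and LD 3 and the Ctrl libraries. The survival gene Mcl1 was at 45734, 45248 and 45716 in Ctrl and 31102, 31030 and 30807 in LD (-0.56, adjusted p 0.00771, lost without Ctrl 2, 0.0509). The others were Junb, Fos (-0.77, lost without Ctrl 2 or Ctrl 3, 0.0688 to 0.0847), chosen after its value was seen, and the risen granule gene Lcn2.

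Of 24 NF-kappaB targets and inflammatory cytokines 4 fell and none rose (median -0.29); the number was 2 without Ctrl 1, Ctrl 2, Ctrl 3 or LD 2 and 8 without LD 1. The share called was 16.7%, against 13.6% of all genes. Zc3h12a, a nuclease that degrades cytokine messages, fell from 1733.2, 1694.6 and 1874.0 to 1096.9, 1009.0 and 875.0 (-0.83, SE 0.11, adjusted p 8.1e-04). Il1b, the cytokine IL-1 beta, was at 34107, 30469 and 36007 in Ctrl and 25117, 22435 and 23107 in LD (-0.51, adjusted p 0.0149, lost without Ctrl 1, Ctrl 3 or LD 2, 0.0542 to 0.0748). The inflammasome gene Nlrp3 fell by 0.48 (lost without Ctrl 1 or Ctrl 2, 0.0731 to 0.0932) and Nfkbiz by 0.47 (lost without every library but Ctrl 1, 0.0576 to 0.167).

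**Figure D3:**
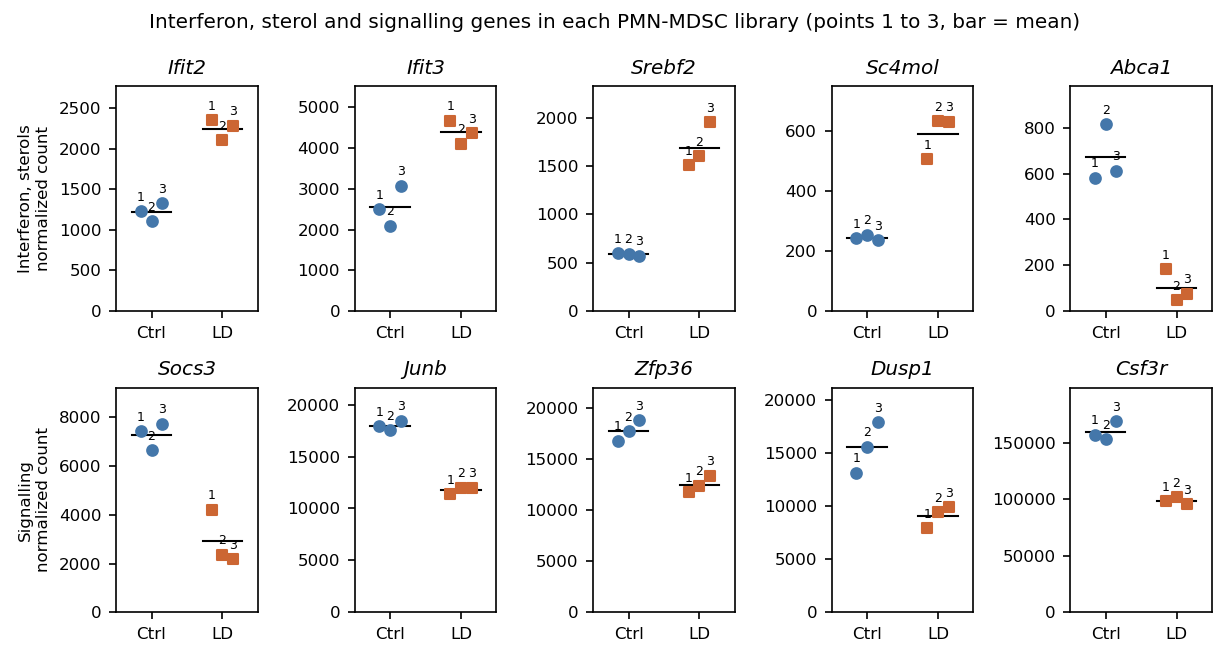
Normalized counts of 10 genes in each PMN-MDSC library (points labelled 1 to 3, blue circles Ctrl, orange squares LD, bar at the mean of 3 libraries), with a linear axis from 0 for each gene. Ifit2, Ifit3, Srebf2 and Sc4mol are higher and Abca1, Socs3, Junb, Zfp36, Dusp1 and Csf3r lower in every LD library than in any Ctrl library.

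Receptors of innate immunity went both ways. For pattern recognition 3 of 31 rose and 5 fell, and the number that fell ran from 1 (without Ctrl 2) through 2 (without Ctrl 1 or LD 3) and 3 (without Ctrl 3 or LD 2) to 8 (without LD 1). Nlrp12, which dampens NF-kappaB signalling, was at 9754.2, 9857.2 and 10315 in Ctrl and 5164.0, 5081.9 and 5126.8 in LD (-0.96, SE 0.09, adjusted p 1.1e-04). Cd14, the co-receptor for bacterial lipopolysaccharide, rose from 793.6, 601.2 and 359.1 to 1014.4, 1145.8 and 1301.3 (1.05, adjusted p 0.0111), and Clec5a by 0.79. Tlr6 fell by 0.47 (lost without Ctrl 1, Ctrl 2 or LD 3, 0.0586 to 0.0865). The others were Nlrp3 and, chosen after their values were seen, Tlr2 (0.50, lost without Ctrl 2, Ctrl 3 or LD 3, 0.100 to 0.136), Aim2 (-0.51, lost without Ctrl 2, Ctrl 3, LD 2 or LD 3, 0.0944 to 0.154) and Clec7a (-0.54, lost without every library but LD 1, 0.105 to 0.146). For chemotaxis and adhesion 4 of 27 rose and 3 fell; 7 rose without LD 1 and 1 fell without Ctrl 2. Besides Fpr1 and Fpr2, the rises were S1pr4 (1.0), a sphingosine phosphate receptor, and Ltb4r1 (0.80), the receptor of leukotriene B4. The falls were Ccr3 (-1.38), Itgax (-0.63, lost without Ctrl 2, 0.0530), which encodes CD11c, and Itgb7 (-0.72, lost without Ctrl 1, Ctrl 2 or LD 2, 0.0625 to 0.0920), chosen after its value was seen. In the eicosanoid pathway 3 of 15 rose and 1 fell, and 5 rose without LD 1. Ptgs1, cyclooxygenase 1, rose from 401.9, 410.5 and 359.1 to 553.2, 850.2 and 1183.5 (1.08, adjusted p 0.0079), Lta4h, which makes leukotriene B4, by 0.66 (lost without Ctrl 1, Ctrl 2, Ctrl 3 or LD 3, 0.0540 to 0.0959), and the prostaglandin receptor gene Ptger2 fell by 0.61 (lost without Ctrl 1, Ctrl 2, Ctrl 3 or LD 2, 0.0543 to 0.138).

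Of 22 Fc and TREM family receptors 2 rose and 2 fell; the number that rose was 6 without LD 1, 5 with edgeR and 6 with DESeq2. The inhibitory receptor gene Cd300lf fell from 13156, 13392 and 15265 to 8513.0, 9176.8 and 10092 (-0.59, adjusted p 0.00465), and Cd300a by 0.50 (lost without Ctrl 2 or Ctrl 3, 0.0562 to 0.0568). Clec12a (0.42, lost without Ctrl 1, Ctrl 2, LD 2 or LD 3, 0.0501 to 0.128) and Fcer1g (0.41, lost without Ctrl 2, Ctrl 3, LD 2 or LD 3, 0.0978 to 0.173), the signalling chain of several Fc receptors, rose. Among 18 iron and haem genes Ltf and Lcn2 rose and the iron exporter gene Slc40a1 fell by 0.44 (lost without Ctrl 1, Ctrl 2, Ctrl 3 or LD 2, 0.0514 to 0.0810). The shares called were 18.2% of the Fc and TREM receptors and 16.7% of the iron and haem genes, against 13.6% of all genes.

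Of 22 genes that handle cyclophosphamide or fludarabine 4 rose and none fell (median 0.22). The share called was 18.2%, against 13.6% of all genes. Aldh2, an aldehyde dehydrogenase, was at 4884.3, 4500.1 and 4533.2 in Ctrl and 8303.3, 8281.1 and 10649 in LD (0.96, SE 0.12, adjusted p 3.8e-04). Mgst1, a microsomal glutathione transferase, rose from 1222.1, 1010.8 and 881.1 to 2045.1, 3122.7 and 3577.3 (1.46, adjusted p 5.5e-04). The others were Nt5e, given above, and the efflux pump gene Abcc4 (0.42, lost without Ctrl 1, Ctrl 2, Ctrl 3, LD 2 or LD 3, 0.0552 to 0.189). Targets of p53, the factor activated by DNA damage, showed 2 rises and 1 fall in 21, with a median of 0.01 that was -0.03 with upper-quartile scaling. That is 14.3% called, near the share of all genes. Ccng1 rose by 0.53 (lost without Ctrl 2, Ctrl 3, LD 2 or LD 3, 0.0633 to 0.112) and Trp53inp1 by 0.46 (lost without every library but LD 1, 0.0731 to 0.191), and Plk3 fell by 0.52 (lost without every library but LD 1, 0.0532 to 0.171). For apoptosis 2 of 24 rose, among them Bak1 (0.69, lost without Ctrl 2, Ctrl 3, LD 2 or LD 3, 0.0722 to 0.122). The 2 that fell were Mcl1 and Bcl2l11, a cell death inducer (-0.49, lost without Ctrl 2, 0.0748), and 4 fell without LD 1. In this list 16.7% was called, also near the share of all genes. Of 23 genes of the unfolded protein response 1 fell, Atf6 (-0.45, lost without every library but LD 1, 0.0747 to 0.0850), and 3 fell without LD 1.

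**Figure D4:**
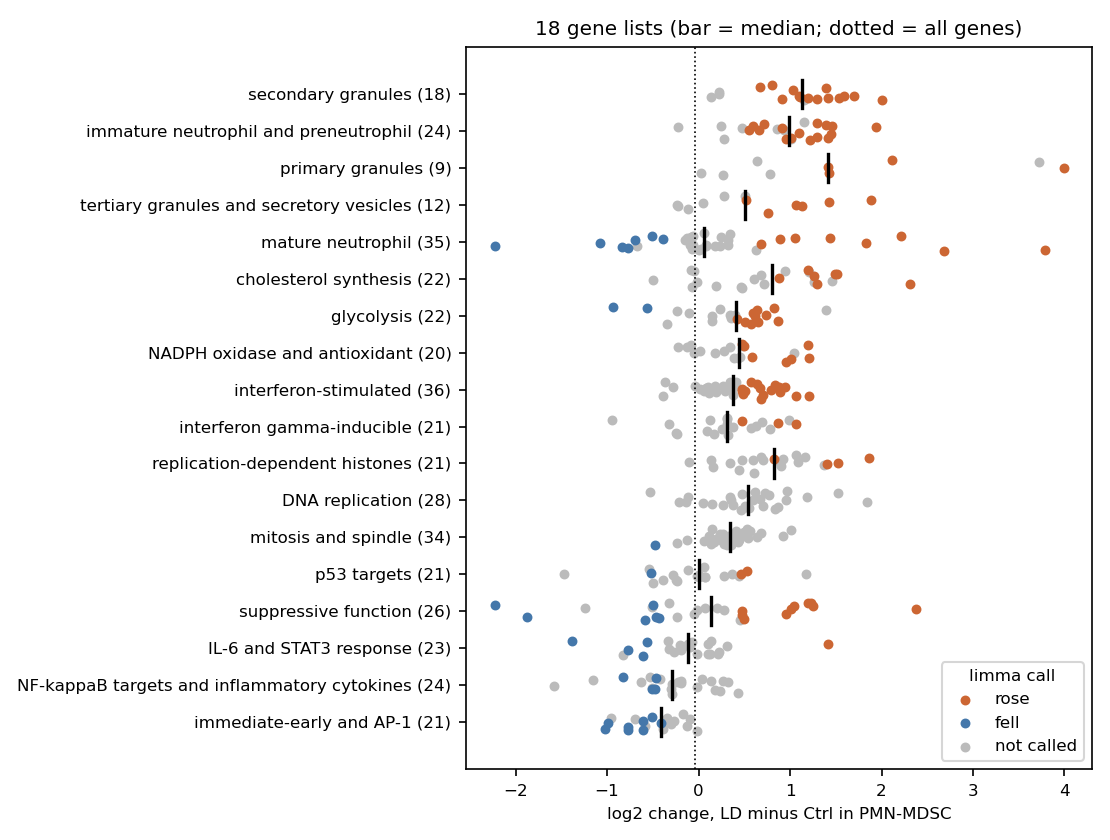
Each point is a tested gene of 1 of 18 lists, at its log2 change (LD minus Ctrl, horizontal axis), coloured by its limma call; the vertical spread within a list is only for display, black bars are list medians, and numbers in brackets are genes tested. Secondary granule genes lie mostly right of 0 (median 1.13) and immediate-early genes left of it (median -0.41), while mitosis genes (median 0.34) are nearly all not called.

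Markers of other cell types were mostly low, and their part in the results was not tested. Of 25 monocyte genes 5 rose and 2 fell (median -0.29), and 7 fell without LD 1. The summed level of 4 B cell markers was 112.2, 58.0 and 44.7 in Ctrl and 13.5, 5.9 and 4.2 in LD. All LD libraries lay below all Ctrl libraries. Cr2, a complement receptor of B cells, was at 20.4, 37.8 and 16.0 in Ctrl and 0.0, 0.0 and 7.0 in LD (adjusted p 0.0431, lost without Ctrl 1, Ctrl 3 or LD 2, 0.0761 to 0.131). The T cell markers Cd3e, Cd3d and Cd3g summed to 21.4, 35.2 and 35.1 in Ctrl and 28.4, 138.3 and 51.9 in LD, so the ranges of the sum overlapped. Cd3d alone was at 7.1, 23.7 and 20.8 in Ctrl and 25.7, 128.0 and 51.9 in LD, without overlap, and was not called. Cd3e and Cd3g reached at most 12.2 and 11.4. The 4 macrophage markers summed to 1655.3 to 1773.7 in Ctrl and 1262.1 to 1509.4 in LD, and none of the 4 was called. Emr1 held most of the sum (1513.2 to 1597.9 in Ctrl and 1127.4 to 1387.0 in LD). Emr1 and Spic were lower in every LD library than in any Ctrl library, while C1qa and Vcam1 overlapped. Apoe, a macrophage lipid carrier, fell from 2492.1, 2386.3 and 1904.3 to 1606.8, 923.7 and 952.2 (-1.0, adjusted p 0.00519). Of the eosinophil genes, Siglec5 fell by 0.90 and Ccr3 by 1.38, from 207.1, 195.1 and 194.7 to 60.9, 98.5 and 72.9, while the granule gene Prg2 had no read in any of the 6 libraries. Epx, another granule gene, was at 0.0 in every library but LD 3, at 1.4. The symbol Siglec5 was matched to the marker Siglecf by a synonym and has no single current RefSeq gene, so its identity is uncertain. Erythroid markers summed to at most 18.9, with Hbb-bt and Hba-a1 at 0 throughout, melanoma markers to at most 21.0, with Tyr and Mlana at 0, and basophil markers to at most 7.1. None of 12 NK cell markers reached the minimum level. Of 6 B cell genes tested 2 fell and 1, Cd22, rose (0.94). Cd6 of the T cell list (1.61), Bst2 of the dendritic cell list (1.21) and Itgb3 of the platelet list (0.52) rose, and Mitf of the melanoma list fell by 0.44. Each of these calls was lost without 4 to 6 of the 6 libraries (adjusted p 0.0598 to 0.214).

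Of 12 nuclear and noncoding RNAs tested 1 rose, 2 fell and 9 were not called (median 0.21). Malat1, an abundant nuclear RNA, was at 415036, 526557 and 590365 in Ctrl and 272226, 292438 and 285453 in LD (-0.84, SE 0.22, adjusted p 0.0261, lost without Ctrl 2, Ctrl 3, LD 2 or LD 3, 0.0596 to 0.142). Kcnq1ot1 fell by 0.89 (lost without every library but LD 1, 0.114 to 0.178). Rmrp, the RNA of a ribosomal RNA-processing enzyme, was at 1054.8, 839.4 and 239.4 in Ctrl and 2043.7, 3284.5 and 2915.4 in LD (2.17, adjusted p 0.00516), and its change was 1.52 without Ctrl 3. Whether these shifts bear on the other genes was not tested.

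Whether the change was shared with the monocytic population was asked by testing the difference of the LD changes over all 12 libraries. There were 3 M-MDSC libraries in each arm, from the same spleens by the series' text. No label ties a library to a mouse, so the fit took the 12 libraries as independent and used no pairing by spleen. Of 11122 genes tested 250 (2.25%) differed: 119 changed more upward in PMN-MDSC and 131 more downward. That number was 115 to 154 without any 1 of Ctrl 1, 2 or 3, LD 2, LD 3 or M-MDSC Ctrl 1, 2 or 3 or M-MDSC LD 3, and 824 without LD 1. With the replicate number as a block within each arm, a fit added after the data were seen, 536 genes differed. Whether a named difference kept its call with 1 library left out is not given here. Mmp8 rose in PMN-MDSC (1.88) and was at -0.89 in M-MDSC, a difference of 2.78 (SE 0.25, adjusted p 1.7e-04). Acvrl1 differed by 2.15 (adjusted p 1.0e-03), with a change of -0.04 in M-MDSC. In both genes the PMN-MDSC change was thus the larger. Cobll1 (4.42), Thbs1 (2.42), Sntb1 (2.33) and Mgst1 (1.72) were the others of the 6 largest upward differences. Cobll1 was low in M-MDSC, with means of 8.6 in Ctrl and 6.4 in LD, and its PMN-MDSC Ctrl mean was 7.4. Thbs1, the matrix protein thrombospondin 1, was not called in PMN-MDSC (0.18) and was at -2.24 in M-MDSC. Sntb1, which rose in PMN-MDSC (1.35), lost that call without Ctrl 2, LD 2 or LD 3 (0.0567 to 0.0661). In the sterol genes Srebf2 (1.51 and 0.47, difference 1.04, adjusted p 0.00849) and Sc4mol (1.26 and 0.20, difference 1.06, adjusted p 0.012) the PMN-MDSC change was the larger. The difference for Abca1 was -3.83 (adjusted p 0.00225), since it was at 0.92 in M-MDSC.

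Genes whose PMN-MDSC change lay below that of M-MDSC included secreted factors. Vegfa, the angiogenic growth factor, was at 682.5, 813.9 and 893.9 in PMN-MDSC Ctrl and 660.0, 522.2 and 513.2 in LD (-0.50, adjusted p 0.0432, lost without Ctrl 2, Ctrl 3, LD 2 or LD 3, 0.121 to 0.175), and at 3.18 in M-MDSC (difference -3.68, adjusted p 0.0293). Inhba, a subunit of activin A, was at 0.42 in PMN-MDSC and 3.90 in M-MDSC (difference -3.47, adjusted p 0.0264). Both genes were low in M-MDSC, with means of 8.6 in Ctrl and 95.1 in LD for Vegfa and 4.6 and 73.7 for Inhba. Cxadr (-3.95), Tex15 (-2.83) and AA467197 (-2.97) completed the 6 largest downward differences. In M-MDSC their Ctrl means were 0.2, 3.8 and 0.2 and their LD means 10.6, 33.4 and 16.4, so these differences rest on low levels there. AA467197 shares an exon region with the microRNA gene Mir147. Socs3 fell in PMN-MDSC (-1.38) and was at -0.05 in M-MDSC (difference -1.33, adjusted p 0.0482), and Dusp1 was at -0.77 and 0.41 (difference -1.18, adjusted p 0.0483). Cd274 was at -0.43 in PMN-MDSC and 0.89 in M-MDSC (difference -1.33, adjusted p 0.0132), with opposite signs. The neutrophil granule genes Ltf (1.29 and 3.56, difference -2.27, adjusted p 0.0356) and Camp (1.10 and 3.52, difference -2.42, adjusted p 0.0293) changed by more in the M-MDSC libraries, where the summed level of the neutrophil markers was 7388 to 8785 in Ctrl and 12022 to 46476 in LD, with no overlap. The part of that neutrophil marker level in these differences, and in those of Vegfa, Inhba, Cxadr, Tex15 and AA467197, was not tested. For mitosis and spindle genes, 29 of 34 rose in the 6 M-MDSC libraries fitted alone (median 2.26), where 4.87% of all genes tested were called, and of the 34 differences 1 was called, in which the PMN-MDSC change lay below; Mki67 was at 0.41 and 2.26 (difference -1.85, adjusted p 0.157).

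**Figure D5:**
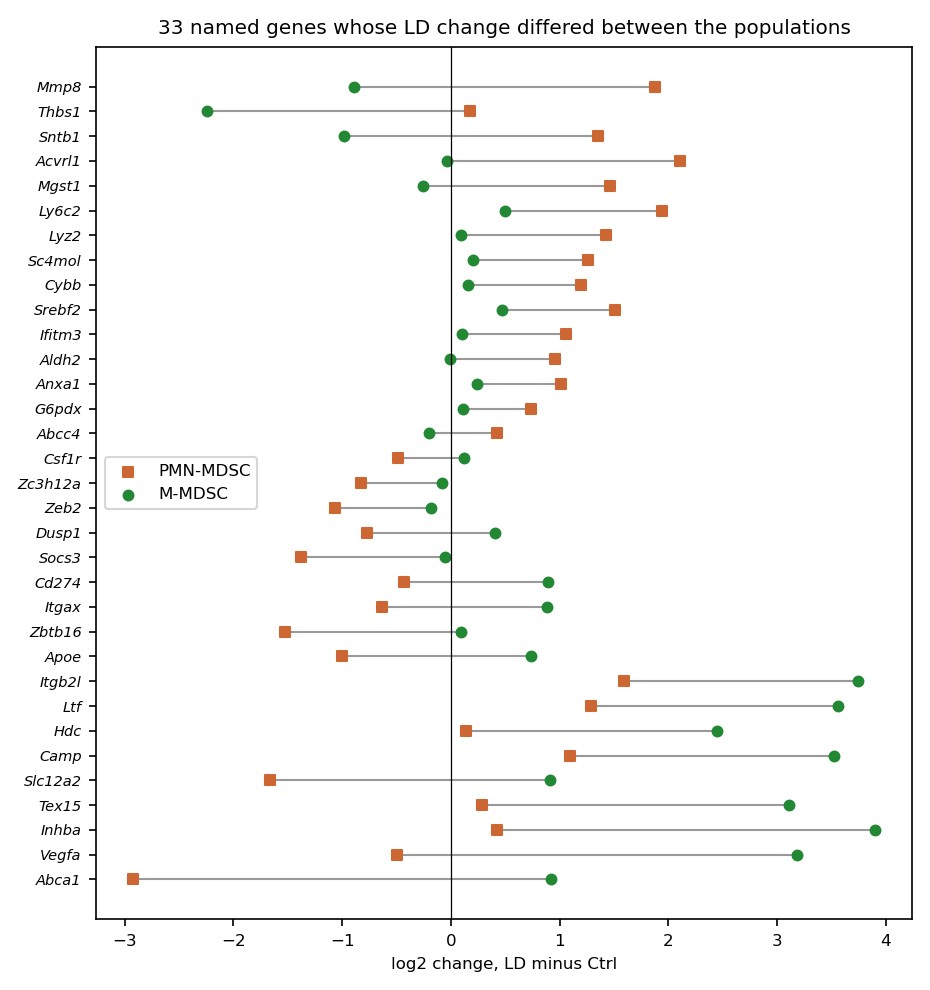
Each row is 1 of 33 named genes whose LD change differed between the populations by limma, with the log2 change (LD minus Ctrl, horizontal axis) in PMN-MDSC (orange squares) and M-MDSC (green circles) joined by a line; 3 others without an M-MDSC change of their own are left out. From Mmp8 at the top to Abca1 at the bottom, genes are ordered by the difference, from 2.78 to -3.83.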

How the data were processed

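Gene expression was measured by RNA-seq in 12 libraries, 6 of them PMN-MDSC (3 Ctrl, 3 LD). The submitters' processing notes name STAR 2.5.3a, HTSeq 0.6.1, DESeq2 and the mm10 build, without stating their roles, and the strand setting is not given in the sources used here. Overlapping and antisense genes therefore cannot be told apart. The deposited values are a signal, counts per gene divided by a size factor per library by the authors. All values in each library were whole reads within 0.001 reads after dividing by the value of 1 read, and these reads entered edgeR and DESeq2 only as alternatives. Libraries were grouped by their labels, and 23479 genes are in the table.

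Genes with a mean of at least 10 normalized counts were tested on log2(value + 1) with limma 3.58.1 (R 4.3.3) in the 6 libraries alone, with a trended prior, 4 residual and 8.07 prior degrees of freedom, and Benjamini-Hochberg adjustment at 0.05. The difference from M-MDSC was tested over 12 libraries (8 residual degrees of freedom). Alternatives changed the pseudocount, minimum level, scaling, weights, tool (edgeR 4.0.16, DESeq2 1.42.0), block and libraries. The procedure was tested on simulated data.

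Lists held 902 genes in 47 lists, of which 893 were in the table, 11 of them under an older symbol, and 733 were tested. Named genes are the 12 largest rises and falls (no overlap between groups, at least 100 normalized counts in the higher group), up to 4 called members per list with the smallest adjusted p (or 2 as values where none was called), the 6 largest differences from M-MDSC in each direction, and, in any case, genes known from this population, such as Arg1, Cd274, Mki67, Csf3r, Mpo and Elane. The members and lists were chosen with earlier results of these data known, and the synonym matching, the motif letters and the sterol element after the files were seen. Promoter windows are 250 bases before to 50 after RefSeq start sites on GRCm38.p6. The results of some genes are not reported here. Figures were drawn with matplotlib 3.10.9.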

Additional observations from a re-analysis of the deposited data

Results flagged for a closer look

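Of the named genes reported here, 36 had an LD change that differed between PMN-MDSC and M-MDSC by limma over all 12 libraries (adjusted p under 0.05). Values are the PMN-MDSC change minus the M-MDSC change on the log2 scale. Whether each difference kept its call with 1 library left out is not given here. In 16 the PMN-MDSC change lay above. Among these were the sterol genes Srebf2 (1.04) and Sc4mol (1.06), the oxidase and NADPH genes Cybb (1.05) and G6pdx (0.63), and the drug-handling genes Aldh2 (0.97), Mgst1 (1.72) and Abcc4 (0.62). Of the neutrophil and monocyte genes, Mmp8 differed by 2.78, Lyz2 by 1.34, Ly6c2 by 1.44 and Anxa1 by 0.77. The others were Ifitm3 (0.97), Acvrl1 (2.15), Cobll1 (4.42), Sntb1 (2.33) and Thbs1 (2.42). Cobll1 was low in M-MDSC, as given above.

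In 20 the PMN-MDSC change lay below. Signalling regulators among them were Socs3 (-1.33), Dusp1 (-1.18) and Zc3h12a (-0.76), and the transcription factors were Zeb2 (-0.89) and Zbtb16 (-1.62). The granule genes were Ltf (-2.27), Camp (-2.42) and Itgb2l (-2.15). Surface receptors and secreted factors were Cd274 (-1.33), Csf1r (-0.61), Itgax (-1.52), Cxadr (-3.95), Apoe (-1.74), Vegfa (-3.68) and Inhba (-3.47). The remaining genes were Abca1 (-3.83), Slc12a2 (-2.57), Tex15 (-2.83), AA467197 (-2.97) and Hdc (-2.31), the histamine-making enzyme. Vegfa, Inhba, Cxadr, Tex15 and AA467197 were low in M-MDSC, as given above. Hdc and Itgb2l were low there in Ctrl, with means of 29.7 and 29.0, against 186.0 and 439.8 in LD. The part of the neutrophil marker level in their differences was not tested either.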

How the results depend on the processing

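Against 1426 genes called for LD against Ctrl, leaving out 1 library gave 653 (without Ctrl 2) to 2168 (without LD 1), and sample weights, which gave LD 1 0.388 and Ctrl 2 3.243, gave 2265. All other settings stayed within 1.5 times, among them edgeR with 1504 (871 rose, 633 fell), DESeq2 with 1822, upper-quartile scaling with 1399 (610 rose, 789 fell) and the spread pooled over all 12 libraries with 1745. For the difference from M-MDSC, against 250 genes, leaving out 1 library gave 115 (without PMN-MDSC Ctrl 2) to 824 (without PMN-MDSC LD 1), no minimum level gave 125, sample weights 524 and DESeq2 699. The cause of these shifts was not tested. The replicate numbers of Ctrl and LD showed no pairing: same-numbered deviations correlated at -0.043, -0.023 and -0.05, and differently numbered ones at -0.016 to 0.058. Whether equal numbers mark a shared mouse or day was not tested. The fit with the number as a block called 1205 genes, 1158 of them among the 1426. For the difference, a block gave 213. A block of the number within each arm, added after the data were seen, gave 536; same-numbered PMN-MDSC and M-MDSC libraries correlated at -0.042, 0.059 and 0.152 in Ctrl and 0.237, 0.136 and 0.083 in LD. No called gene among those named changed its sign in any setting run. Of the values of the named genes under alternatives, 288 lost the call, 13 gained it, 16, all of genes not called, changed sign, and 2577 did none of these. Over the 6 libraries 3 reads are worth 2.64 to 4.79 normalized counts, and Arg1 in every library but LD 2 and Elane in Ctrl lay below that.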
